A study of Bos taurus with 18 samples.

Results

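Smooth muscle contractile genes are described here in 3 segments of the bovine epididymis. The set holds 37 named genes, and a gene counted as measured when a probe set of the array was annotated to that gene symbol and to no other. This held for 36 of the 37, out of 18010 genes measured in all, and the brightest probe set by mean over all arrays stood for each gene. ACTA2, smooth muscle alpha actin, had no such probe set, since the 1 probe set that names it also names ACTG2. Of the 36 genes, 35 had a mean log2 signal of at least 6 over all arrays, and CASQ2, at 4.99, did not. No gene was removed for low signal.

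The arrays came from sexually mature Holstein bulls aged 51 to 71 months, 3 of high and 3 of medium-low fertility, and caput, corpus and cauda tissue of each group gave 18 arrays in 6 groups of 3. Fertility was ranked by cows that had not returned to service 56 days after a first insemination, from 282 to 486 inseminations per bull with statistical adjustment. The bulls had gone to slaughter on the milk records of their daughters. Each sample was a piece of whole tissue, so fewer cells of a type and less RNA per cell cannot be told apart. Values are log2 signals, so a difference of 1 is a 2-fold ratio. Levels are compared between arrays for 1 gene, and between genes only to mark signals low enough to be background.

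Smooth muscle contracts when calcium binds calmodulin and activates myosin light chain kinase, which phosphorylates the regulatory light chain of myosin so that myosin pulls on actin. Myosin phosphatase reverses this, and thin-filament proteins, dense bodies and membrane adhesion plaques regulate or transmit the force. In the epididymis the duct is wrapped in smooth muscle that is thin and rhythmically active proximally and becomes a thicker layer in the cauda, where sperm are stored and from which they are expelled at ejaculation. The roles given below come mainly from work in humans and rodents.

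Some arrays stood apart from their group. Medium-low caput replicates 1 and 2 correlated with replicate 3 of that group at 0.951 and 0.958 over all probe sets, and with each other at 0.98. Pairs in the other groups correlated at 0.978 to 0.990. The mean log2 signal of replicates 1 and 2 over 14 epithelial markers was 9.11 and 8.93, while the other caput arrays ran from 9.60 to 9.73. Within medium-low caput the correlations thus single out replicate 3, and the epithelial markers single out replicates 1 and 2. Medium-low cauda replicate 3 was the lowest array of its group for 35 of the 36 muscle genes, by a median of 0.76 against the mean of the other pair, while 35.5% of all probe sets were lowest in it. In that array the pericyte, fibroblast and endothelial marker lists were also the lowest of the 6 cauda arrays, at 7.70, 9.44 and 7.97, and the epithelial list was the highest, at 9.82. The 3 arrays that stood apart, as named below, are medium-low caput replicates 1 and 2 and medium-low cauda replicate 3. Segment comparisons were also taken without them, a setting chosen after seeing the data that leaves 1 medium-low caput array.

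**Figure D1:**
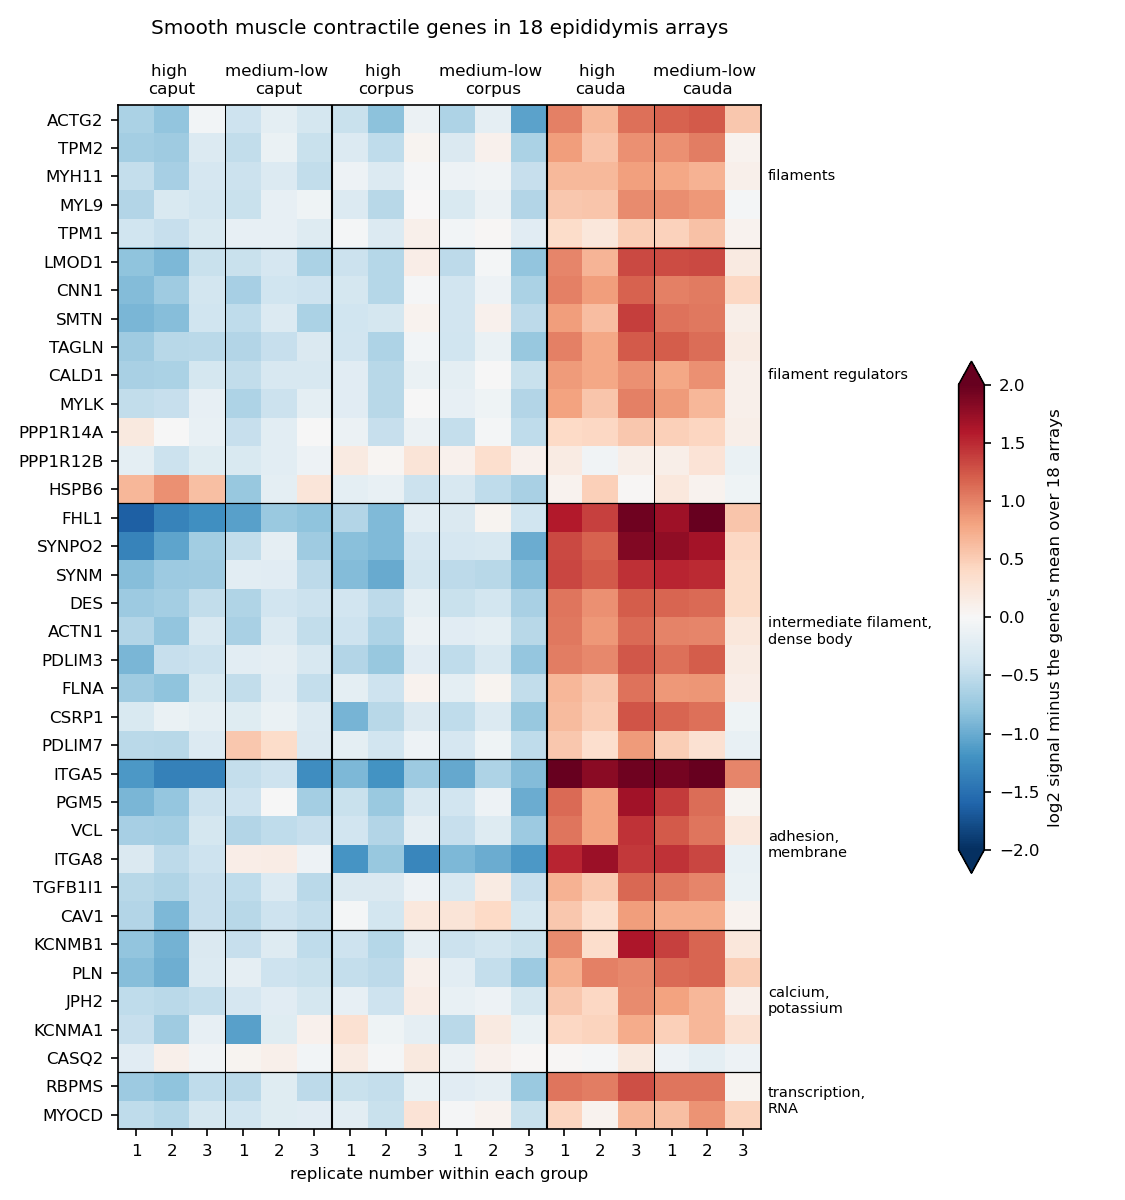
Deviation of each gene's log2 signal from that gene's mean over the 18 arrays, with genes in rows ordered by role and arrays in columns ordered by segment, fertility group and replicate. The 6 cauda arrays are above the mean for most genes, medium-low cauda replicate 3 less so, and HSPB6, PPP1R12B and CASQ2 do not follow.

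Whether the contractile genes differ between the sperm-storing cauda and the caput was asked first. In the cauda 34 of the 36 genes were higher than in the caput at an adjusted p under 0.05 by limma, and 0 were lower. Across all probe sets 17.2% were higher and 15.1% lower. The median difference of the 36 genes was 1.28, against 0.03 for all probe sets, and 25 of the 36 differed by at least 1, as did 2.97% of all probe sets. For 30 of them every cauda array lay above every caput array, which held for 8.7% of all probe sets. Without the 3 arrays that stood apart, which left 1 medium-low caput array, the median difference was 1.46.

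All 5 measured filament genes were higher in the cauda, without overlap of arrays, and their median difference was 1.06. ACTG2, smooth muscle gamma actin, had a log2 signal of 11.16 at the lowest, 11.55 at the median and 11.89 at the highest in the caput, and 12.48, 13.00 and 13.16 in the cauda. The difference was 1.36 ± 0.182 (SE, n = 6 arrays a segment; limma adjusted p = 3.68e-05). MYH11, the smooth muscle myosin heavy chain, moved from a caput range of 11.78 to 12.17 to a cauda range of 12.55 to 13.26, a difference of 1.06 ± 0.113 (limma adjusted p = 4.19e-06) or 2.08-fold. MYL9, the regulatory light chain that the kinase phosphorylates, differed by 0.96. The tropomyosins TPM2 and TPM1, which lie along actin, differed by 1.17 and 0.66. Actins and tropomyosins have near-identical relatives, and how far their probes cross-hybridise was not tested.

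Of the 9 genes that regulate filaments, 8 were higher in the cauda, with a median of 1.18 over the 9. LMOD1, leiomodin, which nucleates actin filaments, had caput values of 8.61 at the lowest, 8.97 at the median and 9.17 at the highest, and cauda values of 9.68, 10.64 and 10.83. Its difference was 1.55 ± 0.206 (limma adjusted p = 3.31e-05). CNN1, calponin, an actin-binding inhibitor of myosin, was higher by 1.49, SMTN, smoothelin, by 1.44, TAGLN, transgelin, by 1.44 and CALD1, caldesmon, by 1.18. MYLK, the light chain kinase itself, was higher by 1.06. Among the genes called, the values were lowest for PPP1R14A, an inhibitor of myosin phosphatase, at 0.50, and PPP1R12B, a subunit that targets the phosphatase to myosin, at 0.32, both with overlapping arrays. The PPP1R12B call ended without medium-low caput replicates 1 and 2, at 0.27 with a limma adjusted p of 0.0682.

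HSPB6, a small heat shock protein that is phosphorylated when cyclic nucleotides relax smooth muscle, went against the set. In high-fertility caput it read 11.01, 11.26 and 10.95, and in medium-low caput 9.59, 10.15 and 10.59. In the corpus it read 10.16, 10.20 and 9.92 in the high group and 10.04, 9.85 and 9.70 in the medium-low group, and in the cauda 10.42, 10.82 and 10.37, then 10.55, 10.41 and 10.27. The high-fertility caput arrays were thus the highest of all 18, and the medium-low caput arrays overlapped the cauda values. The cauda minus caput difference was −0.12 ± 0.142 (limma adjusted p = 0.577), with a 95% interval of −0.42 to 0.19. Without medium-low caput replicates 1 and 2 it was −0.36, with a limma adjusted p of 0.0424. It was not called when medium-low cauda replicate 3 was left out too. Inside the high group the difference was −0.53 (limma adjusted p = 0.0714) and inside the medium-low group 0.30 (0.339).

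All 9 genes of intermediate filaments and dense bodies, the cell-interior anchors of actin, were higher in the cauda, with a median of 1.39. FHL1, a LIM-domain protein of muscle, ran from 8.02 over a median of 8.50 to 8.91 in the caput and from 10.20 over 11.29 to 11.67 in the cauda, a difference of 2.67 ± 0.209 (limma adjusted p = 1.97e-07) or 6.35-fold. The gap between the highest caput and the lowest cauda array exceeded the range within the caput. SYNPO2, an actin-bundling protein also called myopodin, ran from 8.22 over 8.86 to 9.38 in the caput and from 9.97 over 11.05 to 11.41 in the cauda, a difference of 2.11 ± 0.227. SYNM, synemin, an intermediate filament partner of desmin, ran from 8.90 over 9.13 to 9.54 and from 10.14 over 11.15 to 11.28, a difference of 1.78 ± 0.172. In both genes medium-low cauda replicate 3 was the lowest cauda array and still lay above every caput array.

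DES, desmin, the muscle intermediate filament protein, read 11.70, 11.73 and 11.92 in high caput and 11.82, 12.04 and 12.00 in medium-low caput. Its cauda values were 13.49, 13.33 and 13.62 in the high group and 13.59, 13.54 and 12.80 in the medium-low group. The cauda arrays were all higher, 5 of the 6 lay between 13.33 and 13.62, and the difference was 1.53 ± 0.122 (limma adjusted p = 2.42e-07). The actin crosslinkers ACTN1 and FLNA, alpha-actinin and filamin, were higher by 1.39 and 1.20, PDLIM3, an actinin-associated PDZ-LIM protein, by 1.37 and CSRP1, a LIM protein of smooth muscle, by 0.98. PDLIM7, another PDZ-LIM protein, was higher by 0.53 ± 0.148 (limma adjusted p = 0.0124) with overlapping arrays, by 0.77 without medium-low caput replicates 1 and 2 and by 0.86 without medium-low cauda replicate 3 as well.

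All 6 adhesion and membrane genes were higher in the cauda, with a median of 1.45. ITGA5, the alpha chain of a fibronectin receptor, had the largest difference of the set. It read 7.07, 6.87 and 6.87 in high caput, 7.75, 7.81 and 6.98 in medium-low caput, 10.44, 10.02 and 10.17 in high cauda and 10.13, 10.69 and 9.20 in medium-low cauda. Caput and cauda did not overlap, and the difference was 2.88 ± 0.210 (limma adjusted p = 9.38e-08) or 7.36-fold. PGM5, a phosphoglucomutase relative found at adhesion plaques, ran from 9.70 over a median of 10.05 to 10.61 in the caput and from 10.67 over 11.73 to 12.30 in the cauda, a difference of 1.57 ± 0.229. VCL, vinculin, which links integrins to actin, ran from 9.84 over 9.96 to 10.17 and from 10.73 over 11.59 to 11.96, a difference of 1.51 ± 0.160. PGM5 thus came close to overlap, by its lowest cauda array, and VCL did not. TGFB1I1, a focal adhesion adaptor, was higher by 1.20 and CAV1, caveolin, by 1.11.

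Of the 5 calcium and potassium handling genes, 4 were higher in the cauda. KCNMB1, the beta subunit of the large-conductance calcium-activated potassium channel, ran from 7.27 over 7.74 to 7.97 in the caput and from 8.45 over 9.28 to 9.85 in the cauda, a difference of 1.49 ± 0.211 (limma adjusted p = 6.36e-05). KCNMA1, the pore subunit of the same channel, was higher by 0.94. PLN, phospholamban, which restrains the calcium pump of the sarcoplasmic reticulum, was higher by 1.43 and JPH2, which holds that reticulum close to the surface membrane, by 0.99. CASQ2, a calcium store protein, read 4.77 to 5.09 in the caput and 4.80 to 5.18 in the cauda, −0.02 ± 0.071 (limma adjusted p = 0.882). Its mean was at the 14.8th percentile of all probe sets, and no detection call came with the values, so its signal can be background. Both regulators of gene expression were higher: RBPMS, an RNA-binding protein that controls splicing in smooth muscle, ran from 8.08 over 8.36 to 8.65 in the caput and from 8.95 over 9.96 to 10.18 in the cauda, a difference of 1.49 ± 0.162. MYOCD, myocardin, the coactivator of serum response factor, was higher by 0.90.

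**Figure D2:**
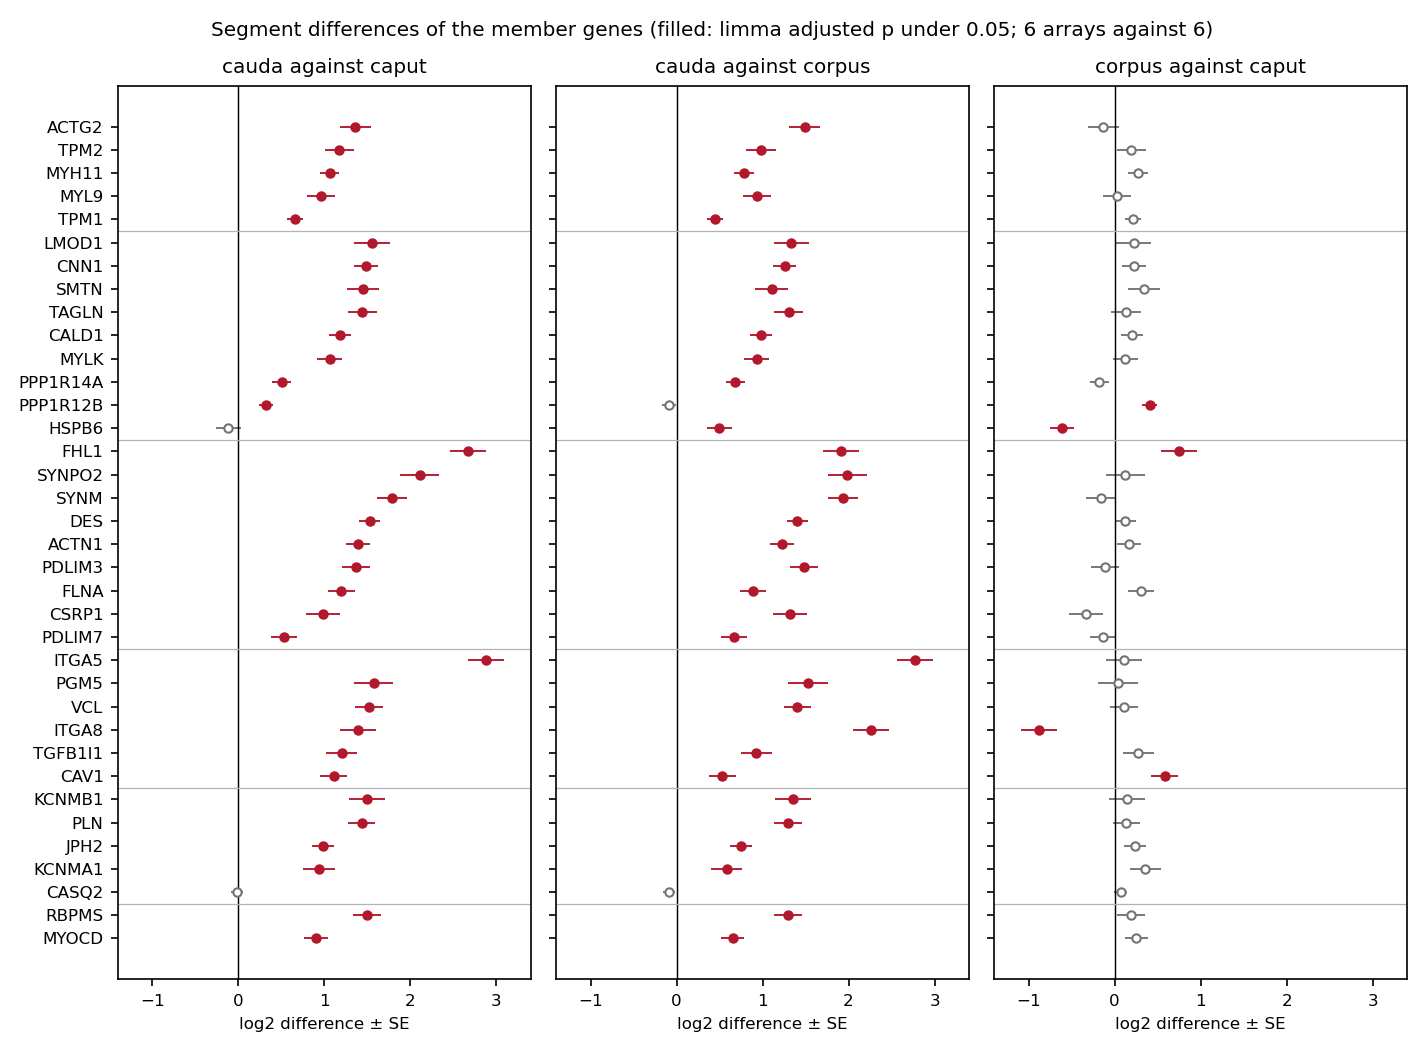
Log2 difference of each gene with its SE, 6 arrays against 6, for cauda against caput, cauda against corpus and corpus against caput, with genes grouped by role and filled points at a limma adjusted p under 0.05. In both cauda comparisons 34 of 36 points are filled and above 0, and in corpus against caput 5 are filled, 3 above and 2 below 0.

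The cauda was then set against the corpus, which shares its cauda arrays with the comparison above. Again 34 of the 36 genes were higher and 0 lower by limma, where 12.1% of all probe sets were higher and 12.3% lower. The median was 1.17, against −0.04 for all probe sets. For 26 genes the arrays did not overlap, against 7.36% of all probe sets, and 19 differed by at least 1, against 2.1%. Of the 36 genes, 33 were higher in the cauda than in both other segments, as were 1995 probe sets or 7.45% of all. Without the 3 arrays that stood apart, the median difference from the corpus was 1.31.

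In the corpus comparison the anchoring and adhesion genes again had the larger values, with medians of 1.40 and 1.47, and the filament genes had 0.94. ITGA5 was higher by 2.77 ± 0.210 (limma adjusted p = 2.69e-07), from corpus values of 7.03 at the lowest, 7.34 at the median and 7.61 at the highest. ITGA8, the alpha chain of another integrin of smooth muscle, read 7.77, 8.20 and 7.65 in high corpus and 8.05, 7.96 and 7.80 in medium-low corpus. In the cauda it read 10.48, 10.66 and 10.37, then 10.39, 10.29 and 8.81, and the difference was 2.26 ± 0.210 (limma adjusted p = 2.04e-06) or 4.79-fold. In the caput it read 8.67, 8.43 and 8.55, then 9.08, 9.11 and 8.85. The cauda value of 8.81 lay above all corpus arrays but inside the caput range, which is why ITGA8 overlapped against the caput, at 1.39 ± 0.210 (limma adjusted p = 0.00012), and at 1.64 without that array.

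The other genes with the largest cauda excess over the corpus were, in order, SYNPO2 at 1.99, SYNM at 1.94, FHL1 at 1.91, PGM5 at 1.53, ACTG2 at 1.49, PDLIM3 at 1.48, VCL at 1.41 and DES at 1.40. ACTG2 had corpus values of 10.87 at the lowest, 11.41 at the median and 11.83 at the highest, and PDLIM3 had 10.59, 10.81 and 11.14. PDLIM3 in the cauda had 11.52, 12.43 and 12.60. Neither gene overlapped between corpus and cauda. The corpus values of SYNPO2 had a median of 8.97, of SYNM 9.04, of FHL1 9.31, of PGM5 10.20, of VCL 10.09 and of DES 12.01.

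A few genes were called by a small margin against the corpus. KCNMA1 was higher by 0.58 (limma adjusted p = 0.0303), CAV1 by 0.53 (0.022) and HSPB6 by 0.50 (0.0184). Each lost its call when single arrays were left out: KCNMA1 in 6 such fits, with 0.49 and an adjusted p of 0.08 without medium-low corpus replicate 1, CAV1 in 5, with 0.45 and 0.0587 without high corpus replicate 2, and HSPB6 in 1, with 0.43 and 0.051 without high cauda replicate 2. The other fits were without high cauda replicate 3, high corpus replicates 2 and 3 and medium-low cauda replicates 1 and 2 for KCNMA1, and without high cauda replicate 3, medium-low cauda replicates 1 and 2 and medium-low corpus replicate 3 for CAV1. PPP1R12B did not pass, at −0.08 ± 0.0839 (limma adjusted p = 0.513), nor did CASQ2, at −0.09. PPP1R12B ran from 7.87 over a median of 7.96 to 8.16 in the corpus, from 7.69 over 7.95 to 8.10 in the cauda and from 7.40 over 7.61 to 7.73 in the caput, so corpus and cauda overlapped.

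**Figure D3:**
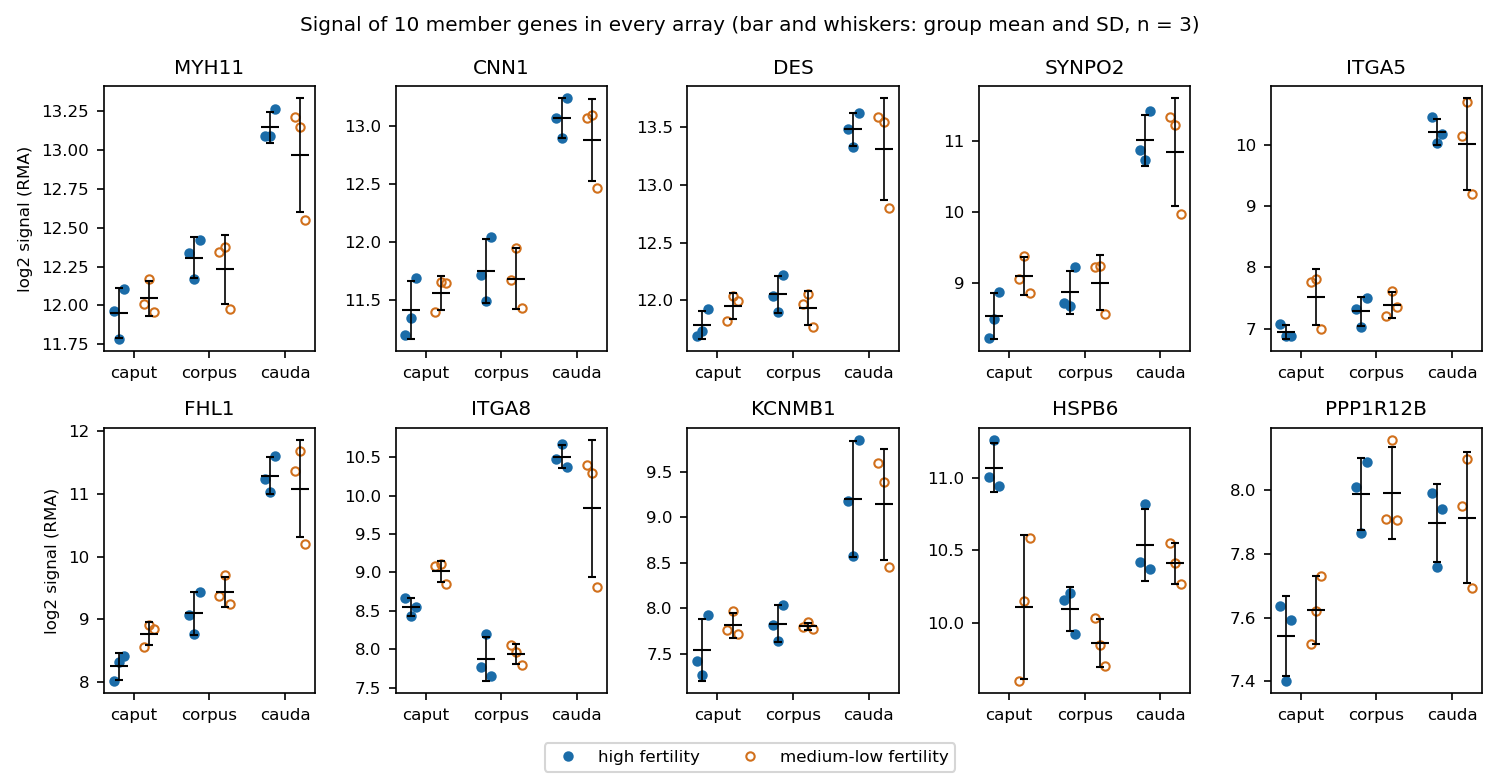
Log2 signal of 10 genes in every array by segment, with filled points for high and open points for medium-low fertility, bars for the group mean and whiskers for the SD (n = 3). The lowest medium-low cauda point is replicate 3 in every panel, and HSPB6 and PPP1R12B show other segment orders than the rest.

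Corpus and caput differed little in these genes. By limma 3 genes were higher in the corpus and 2 lower, where 19.5% of all probe sets were higher and 13.7% lower, so the share of muscle genes called lay below the share of all probe sets. The higher share of all calls was 58.7% here, 41.1% with array medians subtracted and 47.5% with cyclic loess. The median of the 36 genes was 0.14, against 0.06 for all probe sets. This comparison shares its caput and corpus arrays with the others. Ordered by segment means, 26 of the 36 genes ran cauda, corpus, caput and 7 ran cauda, caput, corpus, and among these FHL1, CAV1 and ITGA8 passed between caput and corpus. With the replicate number as a fixed block 10 genes passed in place of 5, the added ones being FLNA, MYH11, MYOCD, SMTN and TPM1, all higher in the corpus. The share of all probe sets called with that block is not given here, so this gain cannot be set against it. PPP1R12B ran corpus, cauda, caput, HSPB6 caput, cauda, corpus and CASQ2 corpus, caput, cauda.

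FHL1 was higher in the corpus by 0.75 ± 0.209 (limma adjusted p = 0.0125), at 8.77 to 9.71 against 8.02 to 8.91, and its call ended without medium-low caput replicates 1 and 2, at 0.72 and 0.0575. CAV1 was higher by 0.58 ± 0.156 (limma adjusted p = 0.0106), from caput values of 9.89 at the lowest, 10.27 at the median and 10.37 at the highest to corpus values of 10.41, 10.87 and 11.18. PPP1R12B was higher by 0.41 ± 0.0839 (limma adjusted p = 0.00183). The arrays of CAV1 and PPP1R12B did not overlap, as in 8.53% of all probe sets, and those of FHL1 did. ITGA8 was lower in the corpus, at −0.87 ± 0.210 (limma adjusted p = 0.00528), with every corpus array below every caput array, as in 6.55% of all probe sets. HSPB6 was lower, at −0.61 ± 0.142 (limma adjusted p = 0.00408), with overlap through the medium-low caput arrays.

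Taken inside each fertility group, 3 arrays against 3, the cauda excess over the caput was called for 33 genes in the high group and 31 in the medium-low group, where 11.9% and 11.3% of all probe sets were called higher. Both groups called 30 of the 36, against 6.83% of all probe sets. The genes not called in the high group were PPP1R14A, HSPB6 and CASQ2, and in the medium-low group PPP1R12B, HSPB6, PDLIM7, ITGA8 and CASQ2. The median difference was 1.40 in the high and 1.04 in the medium-low group, and 33 of the 36 differences were larger in the high group, as were 50% of those of all probe sets. These values rest on medium-low cauda replicate 3: without it the medium-low median was 1.37, and 22 of the 36 differences were larger in the high group, against 49.4% of all probe sets. The difference between those differences was called for 0 of the 36 genes, as for 0.00374% of all probe sets, and its lowest limma adjusted p was 0.323. Against the corpus, 30 genes were called in the high and 29 in the medium-low group, where 7.51% and 5.59% of all probe sets were, and 28 were called in both, against 4.39%. There the difference was larger in the high group for 28 of the 36 genes with all arrays and for 8 without medium-low cauda replicate 3.

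The study asked whether fertility status goes with a different epididymal transcriptome. Medium-low against high fertility, 3 arrays against 3 within a segment, called 0 of the 36 genes in the caput, 0 in the corpus and 0 in the cauda by limma. Of all probe sets 0.213%, 0.00374% and 0.0112% were called. An unadjusted p under 0.05 was reached by 2 genes in the caput, 0 in the corpus and 1 in the cauda. The 95% interval of a difference extended a median of 0.486 to either side, and it lay within 1 of 0 for 29 genes in the caput, 36 in the corpus and 34 in the cauda. Differences smaller than these intervals were not detectable with 3 arrays a group. The intervals are not adjusted for the number of probe sets, and larger differences also went uncalled, such as HSPB6 in the caput at −0.96. The medians of the 36 differences were 0.19 in the caput, −0.04 in the corpus and −0.17 in the cauda, and the last was 0.12 without medium-low cauda replicate 3.

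HSPB6 and PDLIM7 came nearest, both in the caput. HSPB6, with the array values given above, had a medium-low minus high difference of −0.96, with a 95% interval of −1.39 to −0.53 and a limma adjusted p of 0.0578. All medium-low caput arrays lay below all high ones, as in 9.62% of all probe sets. It passed in 4 other settings, with array weights, with fewer probe sets tested in either of 2 ways and without medium-low caput replicate 3, at −1.20 and 0.000279 in the last. Without medium-low caput replicates 1 and 2 the difference was −0.48. Over the alternatives, calls in this comparison also rose from 0 to as many as 8 of 14 epithelial and 5 of 11 leukocyte markers. They stayed at 0 among endothelial and fibroblast markers. The share of all probe sets called in those settings is not given here. PDLIM7 read 8.39, 8.38 and 8.65 in high caput and 9.46, 9.30 and 8.64 in medium-low caput, a difference of 0.66 with a limma adjusted p of 0.0938. Its high values were in the same 2 arrays, and without them the difference was 0.17. These are the arrays of low epithelial signal described above, and the part of that signal in either result was not tested.

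Arrays of both fertility groups did not overlap for 7 genes in the caput. TPM1, SYNM, PDLIM3, FHL1, ITGA8 and JPH2 were all above in medium-low caput, 6 of 36 where 8.93% of all probe sets were, and HSPB6 was below. In the cauda CASQ2 alone lay below, 1 of 36 against 5.06% of all probe sets, with 0 above where 6.53% were. In the corpus 0 lay above or below, against 5.67% and 5.68% of all probe sets. ITGA8 had the lowest cauda difference, −0.67, with a limma adjusted p of 0.822 and replicate 3 as its low array. Whether the segment differences varied with fertility was tested by limma's F test, which called 0 of the 36 genes, against 0.00374% of all probe sets. PDLIM7, HSPB6 and ITGA8 had an unadjusted p under 0.05 in that test, and their limma adjusted p-values were 0.548, 0.548 and 0.567.

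**Figure D4:**
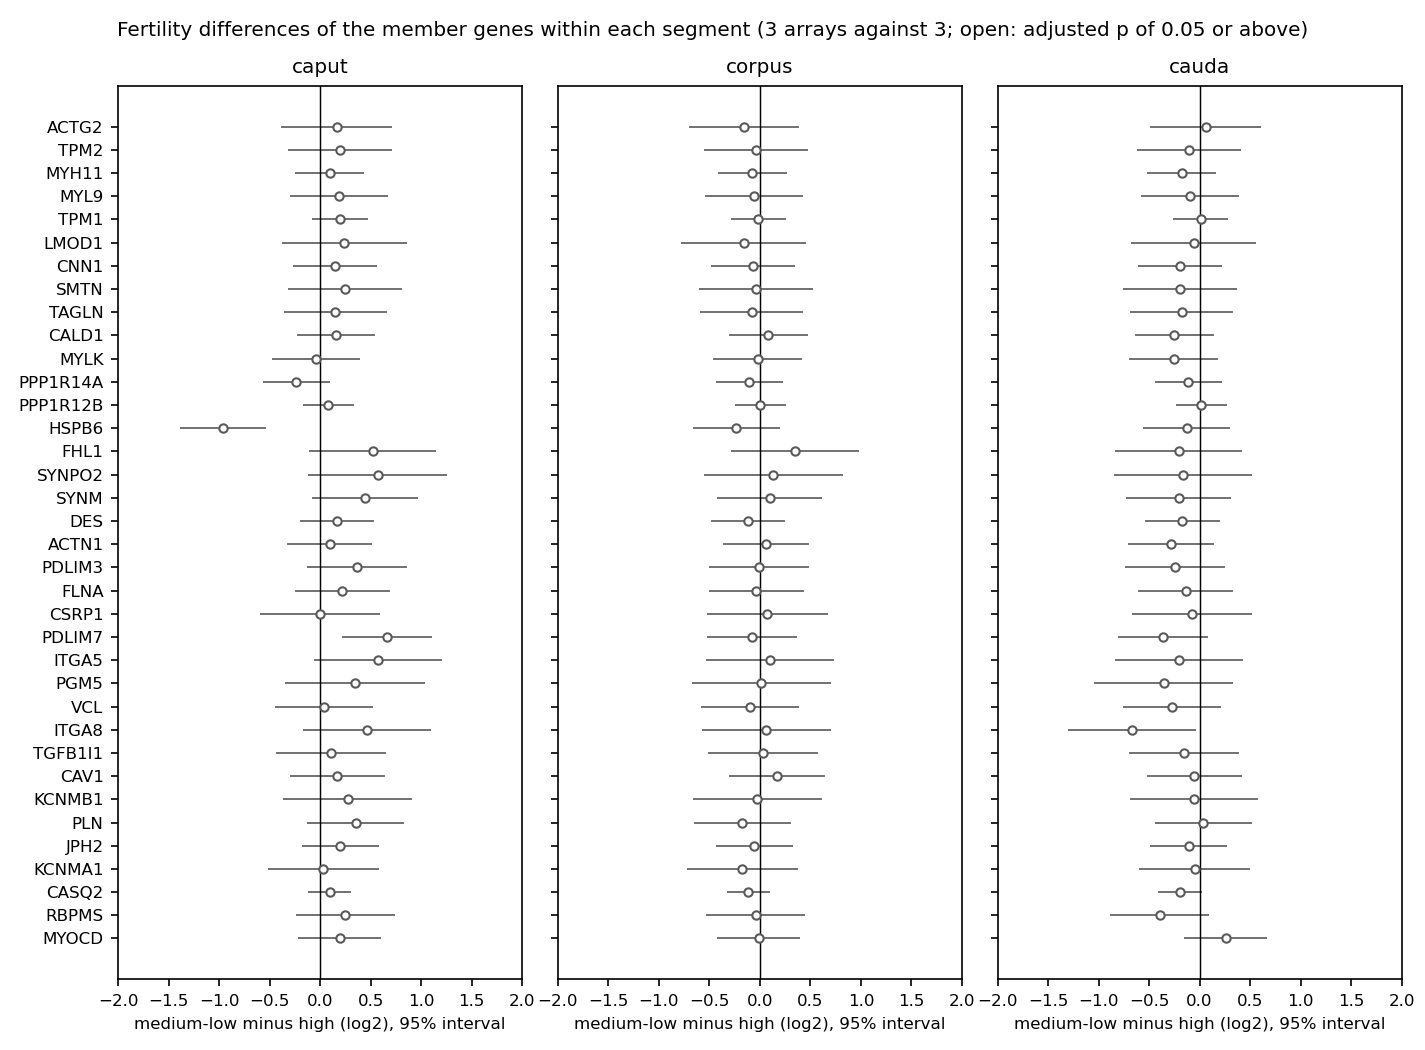
Medium-low minus high fertility log2 difference of each gene with its 95% interval, 3 arrays against 3, in caput, corpus and cauda. Most intervals cross 0, HSPB6 in the caput lies lowest, and 0 of 36 genes pass in any segment.

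Within a group the muscle genes were often high or low in the same array. High corpus replicate 3 was the highest of its group for 32 of the 36 genes, high cauda replicate 3 for 31, high caput replicate 3 for 28 and medium-low corpus replicate 2 for 32. High corpus replicate 2 was the lowest for 31, high cauda replicate 2 for 29 and medium-low corpus replicate 3 for 33. Among all probe sets the same arrays were the highest or the lowest for 30.3% to 36.5%. Medium-low cauda had the widest SD of the 6 groups for 27 of the 36 genes, with a median SD of 0.44 against 0.148 to 0.256 in the other groups. The cell makeup of the pieces was not measured, and its part in this spread was not tested.

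Other genes of the contractile pathway were read from lists that do not overlap the 36, against the 17.2% of all probe sets higher and 15.1% lower in the cauda than in the caput. Of 30 further contractile and cytoskeletal genes 19 were higher in the cauda than in the caput and 4 lower, with a median of 0.61. FILIP1L, a filamin-interacting relative, was higher by 2.20, NEXN, an actin-binding protein, by 1.91, TPM4, a tropomyosin of many cell types, by 1.42 and CNN2, a non-muscle calponin, by 1.27. The caput group means of FILIP1L were 4.31 and 4.59, low enough that its caput signal can be background. TAGLN2, a transgelin of many cell types, at −0.59 and MYL6B, a light chain, at −0.53 were lower. Of 18 signalling genes 13 were higher and 0 lower, with a median of 0.59. GUCY1B1 and GUCY1A1, the subunits of the nitric oxide receptor that makes cyclic GMP, were higher by 1.22 and 0.71, and PDE5A and PDE3A, which break down cyclic nucleotides, by 1.00 and 0.70.

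Of 22 calcium and ion channel genes 17 were higher in the cauda than in the caput and 1 was lower, with a median of 0.85. ABCC9, a subunit of ATP-sensitive potassium channels, was higher by 2.09, ANO1, a calcium-activated chloride channel, by 1.94, ITPR3, a calcium release channel, by 1.82 and ATP2B4, a calcium pump of the surface membrane, by 1.82, whereas RYR2, another release channel, was lower at −1.13. Of 22 receptors that act on contraction 10 were higher and 2 lower, with a median of 0.25. ADRA2A, an alpha-2 adrenergic receptor, was higher by 3.12 (limma adjusted p = 3.71e-07), with group means of 5.74 and 5.99 in high and medium-low caput, 6.39 and 6.43 in corpus and 8.85 and 9.12 in cauda. Its caput signal was likewise low enough to be background, so the ratio is not exact. CHRM2, a muscarinic receptor, was higher by 1.02, ADRA1B by 0.68 and HTR2A, a serotonin receptor, by 0.61. EDNRA, an endothelin receptor, at −0.59 and NPR2, a natriuretic peptide receptor, at −0.52 were lower. Of 18 transcription regulators 9 were higher and 1 lower, with a median of 0.30, led by TEAD1 at 1.05, TEAD3 at 0.98, HEYL at 0.89 and KLF4 at 0.59, with SMAD3 lower at −0.84.

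Against the corpus 7 of the 22 receptors were higher in the cauda and 4 lower, where 12.1% and 12.3% of all probe sets were. ADRA2A was higher by 2.58 and AGTR1, an angiotensin receptor, by 1.03, whereas PTGER3, a prostaglandin receptor, was lower at −1.47 and NPR1, a natriuretic peptide receptor, at −1.34. The remaining lists had 18 higher and 1 lower of 30 contractile genes, 11 and 0 of 18 signalling genes, 12 and 1 of 22 channel genes and 8 and 0 of 18 transcription regulators.

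Pericyte, endothelial and fibroblast markers, like the muscle genes, were mostly higher in the cauda than in the caput. Of 10 pericyte markers 9 were higher in the cauda than in the caput and 0 lower, of 14 endothelial markers 14 and 0, and of 15 fibroblast and matrix markers 11 and 1, with medians of 0.90, 0.66 and 0.86. Per array the mean log2 signal ran from 7.07 to 7.25 in the caput and from 7.70 to 8.41 in the cauda for the pericyte list, from 7.35 to 7.56 and from 7.97 to 8.33 for the endothelial list, and from 8.76 to 9.21 and from 9.44 to 10.23 for the fibroblast list. For the 36 muscle genes it ran from 9.38 to 9.76 and from 10.18 to 11.09. Of 14 epithelial markers 3 were higher and 5 lower, with a median of −0.09, of 11 leukocyte markers 2 and 1, of 10 nerve and glia markers 2 and 1, and of 22 striated muscle markers 0 and 1. The pericyte list holds ABCC9, KCNJ8 and NOTCH3, which are also in the channel and regulator lists, and vessels themselves carry smooth muscle. Without the 3 arrays that stood apart, 8 pericyte, 13 endothelial and 9 fibroblast markers were higher and 0 of each lower, and without medium-low caput replicates 1 and 2 alone the fibroblast calls fell from 12 to 7. The part of vessels and connective tissue in the muscle differences was not tested. Against the corpus 5 of 10 pericyte, 7 of 14 endothelial and 6 of 15 fibroblast markers were higher, with 0, 1 and 2 lower. In that comparison 34 of the 36 muscle genes were higher and 0 lower, and of all probe sets 12.1% and 12.3%. In corpus against caput 6 of 10 pericyte, 9 of 14 endothelial and 3 of 15 fibroblast markers were higher and 0 lower. Of the 36 muscle genes 3 were higher and 2 lower there, and of all probe sets 19.5% and 13.7%. Over the alternatives that pericyte count ran from 2 to 7 and the endothelial one from 7 to 11.

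**Figure D5:**
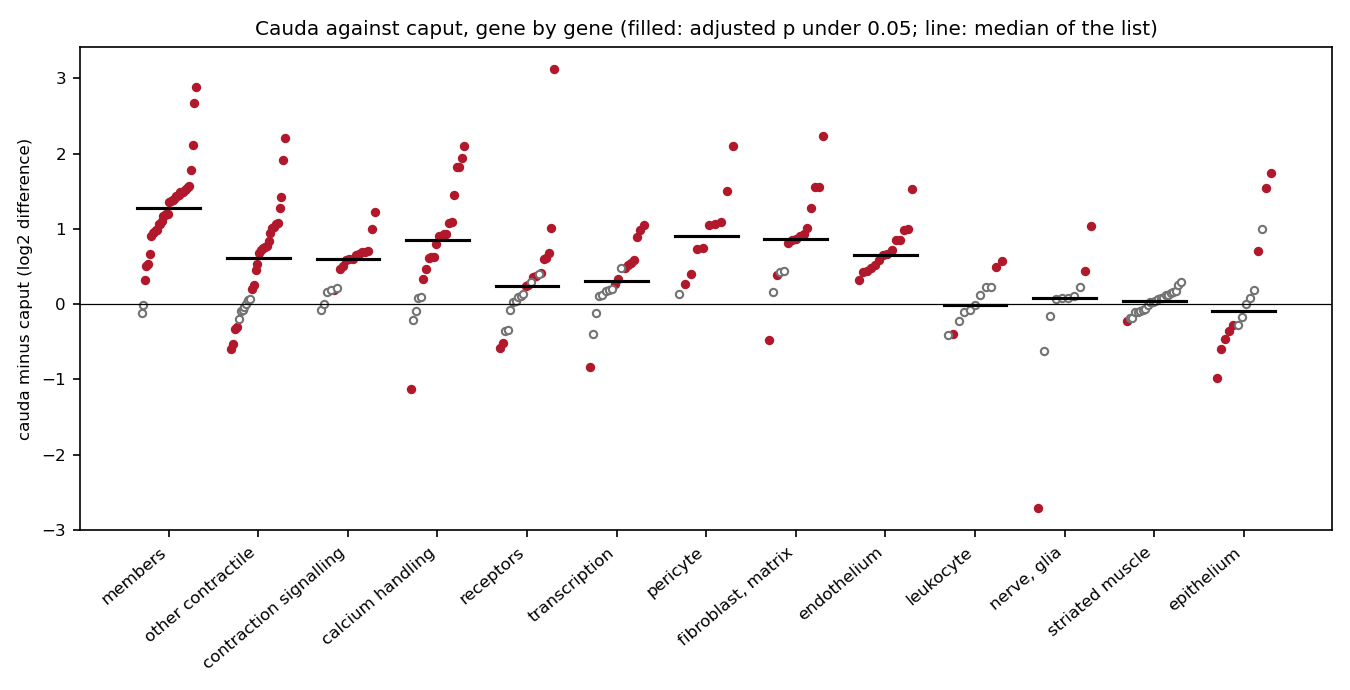
Cauda minus caput log2 difference of every gene in the muscle set and in 12 other lists, 1 point a gene. The muscle set has a median of 1.28, and the pericyte, fibroblast, channel, endothelial, further contractile and signalling lists have medians of 0.59 to 0.90. The receptor and transcription lists have medians of 0.25 and 0.30. Medians of the epithelial, leukocyte, nerve and striated muscle lists lie between −0.09 and 0.09. Single genes spread more widely, from −0.98 to 1.74 in the epithelial and from −2.71 to 1.04 in the nerve list.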

How the data were processed

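The deposited values are log2 signals of probe sets on a bovine expression array, and they were used as they stand. The authors normalized them with RMA, per the submitters' processing notes, which also name Affymetrix Expression Console and Partek 6.5 without a role. RMA corrects background, makes probe distributions alike across arrays and summarises probes to 1 log2 value, so a shift shared by most genes of an array is removed. A genome build for the array is not given in the sources used here. Per the labels' protocols, 200 ng of total RNA per sample was labelled with biotin. Of 26773 probe sets, 18457 were annotated to 1 gene, 688 to several and 7628 to none; 17996 matched a current reference table by gene number, with 0 symbols changed.

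A linear model with a mean for each of the 6 groups was fitted to the 18 arrays with limma 3.58.1 (R 4.3.3). Segment differences average both fertility groups with equal weight. P-values were adjusted by Benjamini-Hochberg over all 26773 probe sets, with a threshold of 0.05. SE and 95% intervals are the model's. The code was tested on simulated data. The number of arrays limits the precision. Arrays of 1 segment and fertility group are separate bulls per the design text, but 6 bulls gave 18 arrays, so segment comparisons hold several arrays of a bull. Whether replicate numbers stand for bulls is not stated in the labels. Deviations of same-numbered arrays correlated from −0.211 to 0.0258 between fertility groups, from 0.149 to 0.302 between caput and cauda, from 0.154 to 0.55 between corpus and cauda and from 0.0706 to 0.352 between caput and corpus. All 6 pairs were above 0.1 for both cauda comparisons, and 5 of 6 were for caput and corpus. This is a hint from the data that numbers pair arrays within a fertility group, and it does not establish pairing. The model given throughout has no block, and fits with one are reported where they change a count.

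The genes, their roles, the other lists and the tests were chosen with earlier results of these data known. Lists are described by counts and medians only. All measured genes of the set are named, and values by array are given for up to 10 genes per segment comparison with the largest differences among those that passed without overlap, and for genes that went against the majority. Of other lists up to 4 genes per comparison are named, with up to 2 in the other direction. Alternatives changed the normalization, the filter on dim probe sets, the prior, array weights, the probe sets tested, the arrays in the fit and a replicate block (statmod 1.5.0), and left out arrays.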

Additional observations from a re-analysis of the deposited data

How the results depend on the processing

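In cauda against caput the same 34 genes were called under every alternative that kept more than 1 array in each group. Without medium-low caput replicates 1 and 2 the genes called changed, with PPP1R12B at 0.27 and HSPB6 at −0.36, lower in the cauda. The counts in cauda against corpus were 34, or 32 to 34 when 1 array was left out. No difference of a gene in the set that passed, or came to pass, turned its sign. Corpus against caput gave 5 genes, 5 to 7 when 1 array was left out, 4 without medium-low caput replicates 1 and 2 and 6 without medium-low cauda replicate 3 as well. That last setting was chosen after seeing the data. With a fixed replicate block corpus against caput gave 10 genes, 8 higher and 2 lower, and with a random replicate block 7. The replicate block changed no call of a gene in the set in the other comparisons. For segments the fixed block was fertility group and replicate number. For fertility it was the number alone, which joins different bulls, so that fixed fit is no check on bulls there. The random block, by fertility group and number, had a within-block correlation of 0.156. Of 36 best matches between arrays 35 carried the same number, a hint from the data and not from the design. Fertility in the caput gave 0 genes, 1 with 1 probe set per gene, 1 with probe sets of a mean of at least 6, 3 with array weights (HSPB6, PDLIM7 and ITGA5) and 0 to 2 when 1 array was left out. The 2 came without medium-low caput replicate 3. Fertility gave 0 to 0 in the corpus and in the cauda when 1 array was left out. The F test gave 0 genes, 2 with array weights and 0 to 2 when 1 array was left out, the 2 again without medium-low caput replicate 3 and being HSPB6 and PDLIM7, with limma adjusted p of 0.0182 and 0.0113. Median differences when 1 array was left out ran from 1.19 to 1.43 for cauda against caput, 1.09 to 1.31 for cauda against corpus, 0.09 to 0.23 for corpus against caput, and 0.14 to 0.26, −0.15 to 0.08 and −0.29 to 0.12 for fertility in caput, corpus and cauda. Among the other lists, counts of calls in cauda against caput changed by over 1.5 times in 1 setting for the fibroblast and the leukocyte list, in 4 for nerve and glia and in 20 for striated muscle, which had 1 call. Causes of these changes were not tested. With 3 arrays a group and no detection call, small differences and dim genes such as CASQ2 are not resolved.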
